A study of Setaria viridis with 24 samples.

Results

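In the grass Setaria viridis, a wild relative of foxtail millet, 59 of 20865 genes had a higher level under drought than with watering in both regions sampled, crown and stem, and at both ages. The members were chosen from the measured values themselves. FPKM corrects a fragment count for transcript length and library size, and the authors gave 1 such value per gene and group. A gene was taken when the ratio of FPKM + 1, drought over watered, was at least 1.5 in the day 9 crown, the day 6 crown, the day 9 stem and the day 6 stem, and when its highest value reached 5 FPKM. Of the 20865 genes, 17043 reached that level in at least 1 group. The same rule turned round was met by 150 genes, lower under drought in all 4 comparisons.

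Plants were grown in pots of peat and sand, under drought or with watering, and cut into a lower part, the crown, and an upper part, the stem. The 8 groups were drought and watered crowns at day 9, drought and watered crowns at day 6, and drought and watered stems at both ages, where days are counted from sowing. Each group had 3 libraries, 1 from each of 3 biological repeats, and each library came from 20 plants. The labels do not state which accession was grown or how drought was imposed. The 3 libraries of a group were combined by the authors, so an FPKM carries no standard deviation and the read depth is unknown. In whole crowns and stems, a shift in the kinds of cells present and a change of RNA per cell cannot be told apart.

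Drought is sensed in plants mainly through falling water potential, and the hormone abscisic acid is the best known signal. It closes stomata and switches on genes for protective proteins such as dehydrins, for sugars and other solutes that hold water, and for the phosphatases that dampen its own signalling. The crown of a grass is the node-bearing shoot base from which shoot-borne roots emerge, and their growth depends on water near the soil surface. In dry soil many grasses hold back these roots. No such role is assigned to a member here. The files give identifiers only, 0 of them matched the reference name table, and the labelled crown and stem could not be checked against marker genes for the same reason.

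The values that chose the members are given first as a description. The median log2 ratio of FPKM + 1 over the 59 members was 1.81 in day 9 crowns, 1.09 in day 6 crowns, 1.84 in day 9 stems and 1.29 in day 6 stems, against 0.00, -0.03, 0.00 and -0.02 over all 20865 genes. At least 2-fold differences were reached by 41 members in day 9 crowns, 36 in day 6 crowns, 46 in day 9 stems and 43 in day 6 stems. A level at least 2-fold higher in all 4 comparisons was found for 30 members, and at least 4-fold in all 4 for 5, while 8 stayed under 2-fold in each. In 38 members every drought value lay above every watered value, whatever the region and day. In 14 of these the lowest drought FPKM was at least 2-fold the highest watered FPKM, here without the added 1. Some of the 14 rest on watered values under 1 FPKM, such as Sevir.6G254500, at 1.71 against 0.823 FPKM. The 59 members held 2645 FPKM in drought and 536 FPKM in watered day 9 crowns, and 1817 and 472 FPKM in drought and watered day 6 crowns. In stems their sums were 1553 FPKM with drought and 305 FPKM with watering at day 9, and 883 and 255 FPKM in drought and watered plants at day 6. This was 0.408% of the summed FPKM of all genes in the drought day 9 crown and 0.0311% in the watered day 6 stem, the highest and the lowest share.

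The authors' own test on the libraries called many but not all of these differences. In the authors' deposited tables, a gene was called when its q-value was under 0.05, and a gene with both groups near or under 2 FPKM was as a rule not listed. Higher under drought were 33 of 59 listed members in day 9 crowns, where 2.2% of all genes listed were called higher, and 31 of 55 in day 6 crowns, where 0.5% were. In stems it was 37 of 57 members at day 9, where 1.26% of all genes listed were called higher, and 32 of 53 at day 6, where 0.528% were. Called in all 4 of these comparisons were 19 members, in 3 of them 6 members, in 2 of them 14 and in a single one 11, against 0.0911%, 0.105%, 0.431% and 2.55% of all 20865 genes. The remaining 9 members were called in none. With the authors' p-values adjusted within each table alone, 16 members were called in day 6 crowns, against 0.147% of all genes listed, and 14 in day 6 stems, against 0.129%. Not all of the 19 members called in all 4 comparisons would thus keep their calls under that adjustment. Since the rule used the same contrasts, nothing is read from these counts.

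**Figure D1:**
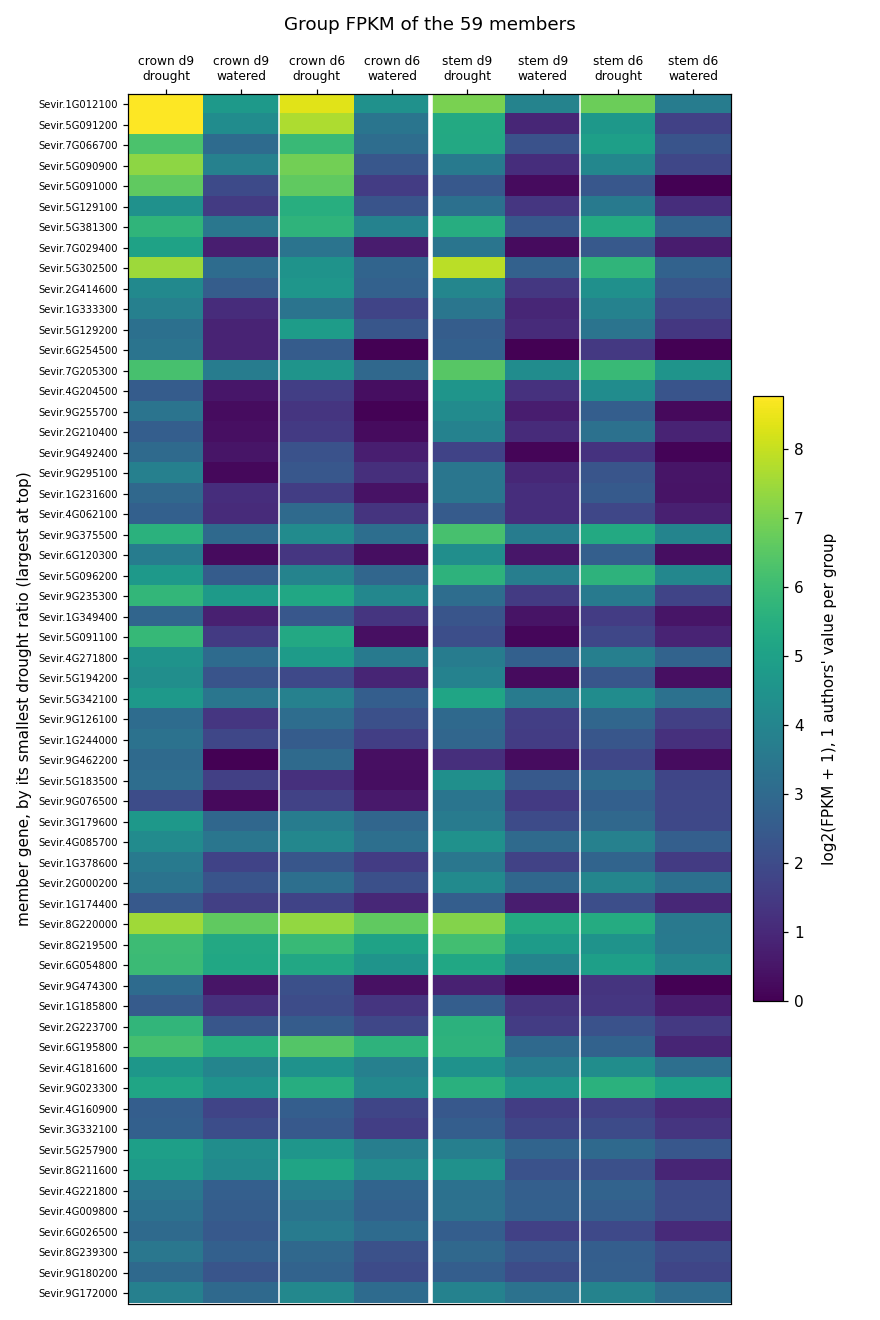
Level of each of the 59 members (rows, by smallest drought ratio) in the 8 groups (columns, crown left of stem and drought left of watered), as log2(FPKM + 1) by colour; each cell is 1 authors' value for 3 libraries. In each of the 4 neighbouring pairs of columns the drought cell is the brighter, and the brightest cells are those of Sevir.1G012100 and Sevir.5G091200 in drought crowns, at 435 and 426 FPKM at day 9.

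The member with the highest smallest ratio was Sevir.1G012100. Positions here are those of the deposited tables, whose genome build is not stated and which name neither exons nor introns. In drought crowns, Sevir.1G012100 (chromosome 1, 939299 to 946263) had 435 and 331 FPKM at day 9 and day 6, against 25.7 and 20.6 FPKM in watered crowns. Drought stems held Sevir.1G012100 at 128 and 110.3 FPKM on these days, against 14.1 and 11.9 FPKM in watered stems. All 4 drought values, 110.3 FPKM or more, lay above all 4 watered values, which reached 25.7 FPKM. The ratios of FPKM + 1 were 16.3 and 15.4 in day 9 and day 6 crowns and 8.54 and 8.59 in day 9 and day 6 stems, so this gene was also the member with the largest ratio in day 6 stems, and its values under drought differed more between crown and stem than between days. In drought crowns, Sevir.7G066700 (chromosome 7, 14992980 to 14997091) had 76.3 and 60.9 FPKM at day 9 and day 6, against 7.34 and 7.88 FPKM in watered crowns. Drought stems held Sevir.7G066700 at 38.2 and 30.1 FPKM on these days, against 3.61 and 3.89 FPKM in watered stems. Its log2 ratios were close to one another, at 3.21 in day 9 crowns, 2.80 in day 6 crowns, 3.09 in day 9 stems and 2.67 in day 6 stems, and the drought crown was the highest and the watered stem the lowest on both days. Both genes were called in all 4 of the authors' deposited tables of drought against watered.

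A run of 4 adjacent members on chromosome 5 held the largest crown ratio of either day. In drought crowns, Sevir.5G091200 (chromosome 5, 7319439 to 7320228) had 426 and 206 FPKM at day 9 and day 6, against 18.2 and 9.68 FPKM in watered crowns. Drought stems held Sevir.5G091200 at 38.7 and 24.3 FPKM on these days, against 0.919 and 2.22 FPKM in watered stems. Crowns of drought plants were thus the high samples, and the lowest drought stem value, 24.3 FPKM, lay above the highest watered value, 18.2 FPKM in day 9 crowns. In drought crowns, Sevir.5G090900 (chromosome 5, 7304309 to 7305091) had 154 and 118 FPKM at day 9 and day 6, against 13.3 and 4.17 FPKM in watered crowns. Drought stems held Sevir.5G090900 at 11 and 15.7 FPKM on these days, against 1.24 and 2.68 FPKM in watered stems. Here the groups overlapped across regions, since the drought day 9 stem was below the watered day 9 crown. In drought crowns, Sevir.5G091000 (chromosome 5, 7307464 to 7307917) had 97 and 97.2 FPKM at day 9 and day 6, against 2.89 and 1.94 FPKM in watered crowns. Drought stems held Sevir.5G091000 at 4.39 and 4.23 FPKM on these days, against 0.207 and 0 FPKM in watered stems. The drought crowns stood apart from the 6 other groups, the watered day 6 stem was listed at 0, and the crown ratios of FPKM + 1, 25.2 at day 9 and 33.4 at day 6, were the largest of any member in those comparisons. In drought crowns, Sevir.5G091100 (chromosome 5, 7317861 to 7318652) had 58.1 and 38.2 FPKM at day 9 and day 6, against 1.82 and 0.272 FPKM in watered crowns. Drought stems held Sevir.5G091100 at 3.28 and 2.69 FPKM on these days, against 0.107 and 0.827 FPKM in watered stems. In stems this gene stayed under 4 FPKM in every group. The authors called Sevir.5G091200 and Sevir.5G090900 in all 4 of their deposited tables, Sevir.5G091000 in 3 and Sevir.5G091100 in the day 9 crown alone (q = 0.00091 in the authors' deposited table). That is the lowest q-value the authors' deposited tables hold. In day 6 crowns, where its ratio of FPKM + 1 was larger, Sevir.5G091100 had q = 0.477 in the authors' deposited table.

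The other members of the leading 10 lay elsewhere. In drought crowns, Sevir.5G302500 (chromosome 5, 34362836 to 34363959) had 179 and 21.6 FPKM at day 9 and day 6, against 7.58 and 6.17 FPKM in watered crowns. Drought stems held Sevir.5G302500 at 232 and 51.9 FPKM on these days, against 5.53 and 5.76 FPKM in watered stems. Watered values were between 5.53 and 7.58 FPKM in all groups, and the day 9 drought groups were the high ones, with the stem above the crown. Its ratio of FPKM + 1 in day 9 stems, 35.6, was the largest of all members there. In drought crowns, Sevir.5G381300 (chromosome 5, 39893869 to 39897043) had 51.9 and 50.6 FPKM at day 9 and day 6, against 10.2 and 13.7 FPKM in watered crowns. Drought stems held Sevir.5G381300 at 42.7 and 40.0 FPKM on these days, against 4.38 and 5.81 FPKM in watered stems. Drought levels of this gene differed little between regions and days, while watered crowns were above watered stems. In drought crowns, Sevir.7G029400 (chromosome 7, 9224001 to 9227104) had 32.4 and 9.44 FPKM at day 9 and day 6, against 0.649 and 0.57 FPKM in watered crowns. Drought stems held Sevir.7G029400 at 9.51 and 4.4 FPKM on these days, against 0.183 and 0.604 FPKM in watered stems. It was under 1 FPKM in all watered groups and highest in the drought day 9 crown.

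The leading 10 were completed by Sevir.5G129100 and Sevir.2G414600. In drought crowns, Sevir.5G129100 (chromosome 5, 10549762 to 10550727) had 20.6 and 43.7 FPKM at day 9 and day 6, against 1.89 and 3.82 FPKM in watered crowns. Drought stems held Sevir.5G129100 at 8.46 and 11 FPKM on these days, against 1.61 and 1.22 FPKM in watered stems. The drought day 6 crown was the highest group of Sevir.5G129100, and its lowest drought value, 8.46 FPKM, lay above its highest watered value, 3.82 FPKM. In drought crowns, Sevir.2G414600 (chromosome 2, 45233456 to 45236752) had 16.8 and 23.2 FPKM at day 9 and day 6, against 4.94 and 5.54 FPKM in watered crowns. Drought stems held Sevir.2G414600 at 15.1 and 20.0 FPKM on these days, against 1.7 and 4.08 FPKM in watered stems. Sevir.2G414600 had similar drought levels in all 4 drought groups, all above the watered ones. The authors' deposited tables called these 5 genes in all 4 drought comparisons.

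**Figure D2:**
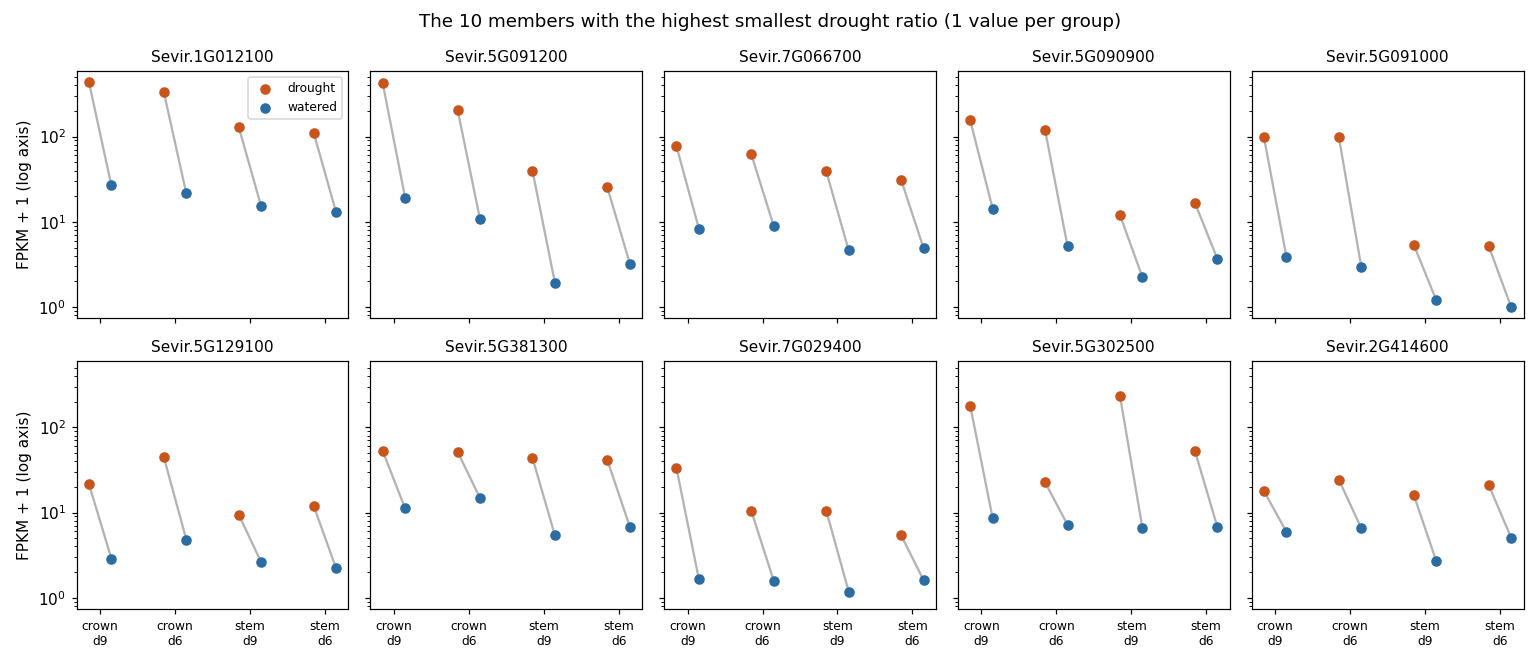
FPKM + 1 (log axis) of the 10 members with the highest smallest drought ratio in each region and day; orange points are drought groups, blue points to their right the watered groups, 1 authors' value each, joined by a line. All lines fall from left to right, and Sevir.5G302500 stands at 232 FPKM in drought and 5.53 FPKM in watered day 9 stems.

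Members that were low or near 0 without drought formed a group of 7, with all 4 watered values under 1 FPKM. Besides Sevir.7G029400 they were Sevir.6G254500, Sevir.9G255700, Sevir.9G492400, Sevir.6G120300, Sevir.9G462200 and Sevir.9G474300. In drought crowns, Sevir.9G255700 (chromosome 9, 20617752 to 20626845) had 9.32 and 1.55 FPKM at day 9 and day 6, against 0.234 and 0.0439 FPKM in watered crowns. Drought stems held Sevir.9G255700 at 18 and 5.18 FPKM on these days, against 0.616 and 0.181 FPKM in watered stems. The drought groups were all above the watered ones, yet the authors' deposited tables called none of the 3 comparisons in which this gene was listed, with q-values of 0.50 in day 9 crowns, 0.313 in day 9 stems and 0.538 in day 6 stems. It shares its position entry with 1 other gene, so reads of the 2 may be hard to tell apart. In drought crowns, Sevir.6G120300 (chromosome 6, 18770368 to 18773839) had 11.9 and 1.6 FPKM at day 9 and day 6, against 0.198 and 0.242 FPKM in watered crowns. Drought stems held Sevir.6G120300 at 19 and 5.32 FPKM on these days, against 0.435 and 0.247 FPKM in watered stems. On each day the drought stem was the highest group of this gene, too, and it was called only in day 6 stems in the authors' deposited tables (q = 0.0169). Sevir.6G254500 ranged from 1.71 to 9.38 FPKM over the 4 drought groups and from 0 to 0.823 FPKM over the 4 watered groups. It was listed at 0 in 3 of the watered groups. Sevir.9G492400 ranged from 1.45 to 7.23 FPKM over the 4 drought groups and from 0.0544 to 0.66 FPKM over the 4 watered groups. Both of its crown comparisons were called in the authors' deposited tables. Sevir.9G462200 ranged from 1.2 to 7.27 FPKM over the 4 drought groups and from 0 to 0.277 FPKM over the 4 watered groups. Sevir.9G474300 ranged from 0.731 to 7.44 FPKM over the 4 drought groups and from 0 to 0.418 FPKM over the 4 watered groups. For this pair the drought crowns were the highest groups at both ages, and 1 watered value each was listed at 0.

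Members with high levels already in watered plants made up the other end. Any watered value of at least 10 FPKM was found for 18 members. In drought crowns, Sevir.8G220000 (chromosome 8, 35643963 to 35646949) had 183 and 162 FPKM at day 9 and day 6, against 97.8 and 98.3 FPKM in watered crowns. Drought stems held Sevir.8G220000 at 141 and 41.1 FPKM on these days, against 40.5 and 10.7 FPKM in watered stems. The watered crowns of this gene were the highest watered values of any member. In drought crowns, Sevir.6G195800 (chromosome 6, 30739329 to 30740995) had 71.1 and 84.1 FPKM at day 9 and day 6, against 44.3 and 49.6 FPKM in watered crowns. Drought stems held Sevir.6G195800 at 49.6 and 5.77 FPKM on these days, against 7.05 and 0.898 FPKM in watered stems. Both genes were abundant in watered crowns, and both had their smaller drought ratios there. In drought crowns, Sevir.8G211600 (chromosome 8, 34717712 to 34719397) had 26.6 and 34.1 FPKM at day 9 and day 6, against 17.1 and 17.7 FPKM in watered crowns. Drought stems held Sevir.8G211600 at 20.4 and 3.42 FPKM on these days, against 3.58 and 0.862 FPKM in watered stems. Its watered day 6 stem was the lowest of its 8 values. Drought values of these 3 genes overlapped the watered values across regions, as the drought day 6 stem was below the watered crowns. Sevir.8G219500 ranged from 21.7 to 67.6 FPKM over the 4 drought groups and from 11.2 to 38.4 FPKM over the 4 watered groups. Sevir.6G054800 ranged from 30.3 to 62.4 FPKM over the 4 drought groups and from 14.4 to 36 FPKM over the 4 watered groups. Sevir.9G023300 ranged from 34.7 to 47 FPKM over the 4 drought groups and from 15.9 to 29.8 FPKM over the 4 watered groups. The watered crown of Sevir.6G054800 at day 9 stood above its drought stem at day 6, and Sevir.9G023300 was higher in stems than in crowns in each of the 4 pairs. Sevir.4G181600 ranged from 18.9 to 24.1 FPKM over the 4 drought groups and from 8.26 to 15.1 FPKM over the 4 watered groups. Sevir.4G181600 was not called in any of the 4 authors' deposited tables, where its q-values were between 0.294 and 0.509.

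Drought ratios were compared between crown and stem for each member. The ratio was larger in the crown than in the stem for 30 of 59 members at day 9 and for 27 at day 6. It was larger in the crown on both days for 20 members and larger in the stem on both days for 22. A difference of at least 1 on the log2 scale in favour of the crown on both days was found for 4 members, Sevir.5G090900, Sevir.5G091000, Sevir.5G091100 and Sevir.9G462200. Only Sevir.6G195800 had such a difference in favour of the stem, with log2 ratios of 0.67 in day 9 crowns, 0.75 in day 6 crowns, 2.65 in day 9 stems and 1.83 in day 6 stems. Whether drought acted differently in crown and stem was not tested, since that needs the values of single libraries. The comparison with the largest ratio was the day 9 stem for 24 members, the day 9 crown for 20, the day 6 crown for 11 and the day 6 stem for 4.

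**Figure D3:**
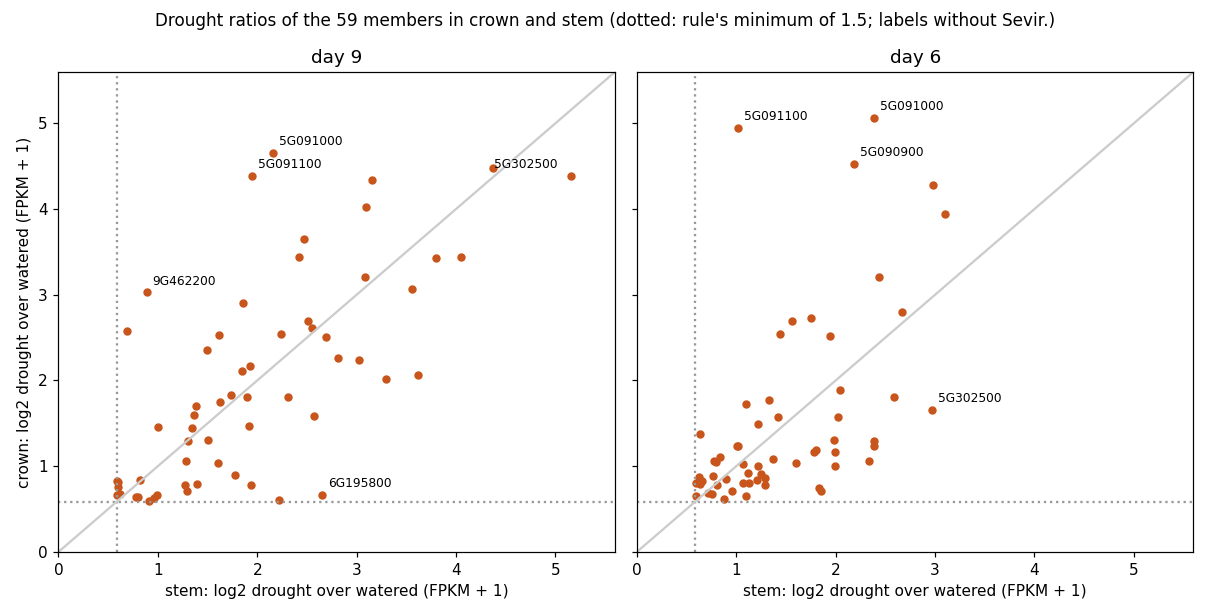
Log2 ratio of FPKM + 1, drought over watered, in crowns (vertical) and stems (horizontal) for the 59 members (points) at day 9 (left) and day 6 (right); dotted lines mark the minimum of the rule and the grey line equal ratios. Points lie on both sides of the grey line, and Sevir.5G091000 and Sevir.5G091100 lie above it on both days, with crown log2 ratios of 4.65 and 4.39 at day 9 and 5.06 and 4.94 at day 6.

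Between ages, the drought ratio was larger at day 9 than at day 6 for 46 of 59 members in stems and for 35 in crowns. In both regions it was larger at day 9 for 30 members and larger at day 6 for 8. The genes that reach 5 FPKM also met the ratio of 1.5 more often at day 9. In crowns 1025 of them met it at day 9 and 408 at day 6, and in stems 684 and 473. These counts are of genes that met 1.5 and not of genes with the larger ratio at day 9, so they are not the same measure as the member counts. Whether the members differ from other genes in this was not tested. In 7 members the log2 ratio was higher at day 9 by at least 1 in both regions. In drought crowns, Sevir.2G223700 (chromosome 2, 30657716 to 30658958) had 53.8 and 4.87 FPKM at day 9 and day 6, against 4.03 and 2.68 FPKM in watered crowns. Drought stems held Sevir.2G223700 at 48.2 and 3.63 FPKM on these days, against 1.97 and 1.74 FPKM in watered stems. Its level at day 9 under drought stood out from the 6 other groups, all under 5 FPKM. In drought crowns, Sevir.9G375500 (chromosome 9, 41004112 to 41005587) had 47.6 and 17.9 FPKM at day 9 and day 6, against 6.93 and 7.9 FPKM in watered crowns. Drought stems held Sevir.9G375500 at 74.2 and 38.7 FPKM on these days, against 11.8 and 14.4 FPKM in watered stems. On each day the drought stem was the highest group of this gene. In drought crowns, Sevir.5G194200 (chromosome 5, 23398005 to 23399490) had 19.2 and 2.79 FPKM at day 9 and day 6, against 3.81 and 0.885 FPKM in watered crowns. Drought stems held Sevir.5G194200 at 13.8 and 4.09 FPKM on these days, against 0.208 and 0.274 FPKM in watered stems. The other 4 of the 7 were Sevir.7G029400, Sevir.5G302500, Sevir.9G255700 and Sevir.6G120300. On the other side, Sevir.5G129200, the neighbour of Sevir.5G129100, had its largest value in drought day 6 crowns. In drought crowns, Sevir.5G129200 (chromosome 5, 10551823 to 10552773) had 8.46 and 27.8 FPKM at day 9 and day 6, against 0.844 and 4.03 FPKM in watered crowns. Drought stems held Sevir.5G129200 at 4.98 and 9.31 FPKM on these days, against 1.13 and 1.68 FPKM in watered stems. The day 6 ratios of Sevir.5G129200 were above the day 9 ratios in both regions, as were those of Sevir.5G091000, Sevir.5G129100, Sevir.9G235300, Sevir.4G181600, Sevir.4G221800, Sevir.9G180200 and Sevir.9G172000. For Sevir.5G091000 this rests, in stems, on a watered day 6 value listed at 0.

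Levels in crown and stem of watered plants form a contrast that the rule did not use, although it used the 4 watered values in other pairs. Crowns were higher than stems in all 4 pairs of the same day and water supply for 27 of 59 members (45.8%), against 23.6% of the 17043 genes that reach 5 FPKM. Stems were higher in all 4 for 12 members (20.3%), against 22.1%. Both counts also take in the drought pairs, whose values entered the rule and its minimum level. In the authors' deposited table for day 9, 11 of 40 listed members were called higher in watered crowns and 1 higher in watered stems, while 12% of all genes listed were called higher in the crown and 6.88% lower. At day 6 it was 11 of 41 members higher in watered crowns, against 8.3% of all genes listed, and 4 lower, against 12.3%. The members not listed had both values near or under 2 FPKM. Whether these shares differ from those of all genes was not tested.

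In watered plants 9 of the 36 members listed on both days were called crown-higher on both in the authors' deposited tables, against 3.59% of all genes listed on both. They were Sevir.1G012100, Sevir.3G179600, Sevir.5G091200, Sevir.5G257900, Sevir.5G381300, Sevir.6G195800, Sevir.8G211600, Sevir.8G220000 and Sevir.9G235300. The largest log2 differences of FPKM + 1 among called members were those of Sevir.5G091200, at 3.32, and Sevir.9G235300, at 3.24, at day 9. At day 6 they were those of Sevir.6G195800, at 4.74, and Sevir.8G211600, at 3.33. In drought crowns, Sevir.9G235300 (chromosome 9, 17974337 to 17975270) had 54.8 and 36.1 FPKM at day 9 and day 6, against 26.3 and 15.6 FPKM in watered crowns. Drought stems held Sevir.9G235300 at 7.78 and 11 FPKM on these days, against 1.88 and 2.49 FPKM in watered stems. Each crown value of Sevir.9G235300 was above each stem value, whatever the water supply. Sevir.5G257900 ranged from 7.0 to 29.7 FPKM over the 4 drought groups and from 4.18 to 18.8 FPKM over the 4 watered groups. Its crowns were at least 2-fold above its stems in each of the 4 pairs on the scale of FPKM + 1, as were those of Sevir.5G091200, Sevir.5G091000 and Sevir.9G235300. Sevir.3G179600 ranged from 6.77 to 24.5 FPKM over the 4 drought groups and from 2.72 to 6.57 FPKM over the 4 watered groups. It was called in each of the 4 drought comparisons and in the 4 comparisons of crown with stem in the authors' deposited tables.

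Stem-higher members were fewer. In drought crowns, Sevir.5G096200 (chromosome 5, 7755442 to 7759515) had 25.4 and 14.1 FPKM at day 9 and day 6, against 4.87 and 6.35 FPKM in watered crowns. Drought stems held Sevir.5G096200 at 49.5 and 49.7 FPKM on these days, against 12.3 and 15.7 FPKM in watered stems. Sevir.5G096200 was called stem-higher on both days in watered and in drought plants in the authors' deposited tables, and the 2 drought stems were its highest groups. In drought crowns, Sevir.7G205300 (chromosome 7, 25821441 to 25825541) had 73.5 and 22.1 FPKM at day 9 and day 6, against 11.8 and 6.77 FPKM in watered crowns. Drought stems held Sevir.7G205300 at 88.9 and 60.7 FPKM on these days, against 18.1 and 22 FPKM in watered stems. Sevir.7G205300 was called stem-higher in watered plants at day 6 (q = 0.00091 in the authors' deposited table) and not at day 9 (q = 0.237). Sevir.2G000200 ranged from 8.2 to 17.3 FPKM over the 4 drought groups and from 3.41 to 8.39 FPKM over the 4 watered groups. With Sevir.9G023300 it made up the other 2 members called stem-higher at day 6. On the scale of FPKM + 1, stems were at least 1.5-fold above crowns in all 4 pairs for 7 members, Sevir.5G096200, Sevir.2G000200, Sevir.9G375500, Sevir.4G204500, Sevir.2G210400, Sevir.5G183500 and Sevir.9G076500. Sevir.4G204500 ranged from 2.1 to 22.6 FPKM over the 4 drought groups and from 0.257 to 3.82 FPKM over the 4 watered groups. Sevir.2G210400 ranged from 1.81 to 13.7 FPKM over the 4 drought groups and from 0.194 to 1.09 FPKM over the 4 watered groups. The drought stems were the high groups in both genes. Sevir.5G183500 ranged from 1.3 to 19.8 FPKM over the 4 drought groups and from 0.264 to 4.51 FPKM over the 4 watered groups. Sevir.9G076500 ranged from 2.28 to 9.55 FPKM over the 4 drought groups and from 0.18 to 2.62 FPKM over the 4 watered groups. Each of the last 4 genes had its highest value in the drought day 9 stem.

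Under drought, where all 59 members were listed, 11 were called higher in the day 9 crown than in the day 9 stem and 5 lower in the authors' deposited table, against 11.6% and 6.64% of all genes listed. At day 6 it was 21 higher and 8 lower, against 6.44% and 10.7%. The 4 members of the chromosome 5 run were called crown-higher in both of these tables. The drought values also entered the rule and its minimum level, so nothing is read from these shares. Of the 9 members called crown-higher on both days in watered plants, Sevir.1G012100, Sevir.6G195800, Sevir.8G211600 and Sevir.8G220000 were called crown-higher at day 6 under drought and not at day 9 in the authors' deposited tables. The log2 difference of FPKM + 1, crown over stem, was 0.51 at day 9 and 3.65 at day 6 for Sevir.6G195800 under drought, and 0.37 and 1.95 for Sevir.8G220000. For Sevir.8G211600 it was 0.37 and 2.99 on these days. For Sevir.1G012100 the difference was not smaller at day 9, at 1.75 against 1.58 at day 6, and only the call was absent (q = 0.102 in the authors' deposited table).

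Age was the other contrast that the rule did not use, although the values compared here entered the rule in other pairs. In watered crowns 2 of 43 listed members, Sevir.5G090900 and Sevir.5G194200, were called higher at day 9 than at day 6 in the authors' deposited table, and 0 lower, against 8.56% and 2% of all genes listed. At an unadjusted p under 0.05 in the same table, Cuffdiff gave 10 members higher and 2 lower, against 14.7% and 6.21% of all genes listed. With the adjustment made within this comparison 0 members were called higher, against 7.32%. In watered stems 4 of 38 were called higher at day 9, Sevir.6G195800, Sevir.8G211600, Sevir.8G219500 and Sevir.8G220000, and 0 lower, against 4.41% and 6.76%. Unadjusted, 5 members were higher and 2 lower, against 9.76% and 13.8%. Levels at day 9 were within 1.5-fold of day 6 in both watered regions for 32 members (54.2%), against 62.0% of the genes that reach 5 FPKM.

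Under drought, 11 of 59 members were called higher at day 9 than at day 6 in crowns and 2 lower in the authors' deposited table, against 7.97% and 2.59% of all genes listed. In drought stems it was 12 of 58 higher and 0 lower, against 4.08% and 7.3%, and at an unadjusted p under 0.05 Cuffdiff gave 20 higher and 0 lower, against 9.26% and 13.5%. Called higher in both drought regions were 7 of the 58 members listed in both, against 0.976% of all genes listed in both. They were Sevir.2G223700, Sevir.5G183500, Sevir.5G194200, Sevir.5G302500, Sevir.5G342100, Sevir.6G120300 and Sevir.9G375500. The 2 that were lower at day 9 in drought crowns were the neighbours Sevir.5G129100 and Sevir.5G129200. At least 1.5-fold higher at day 9 in both drought regions, on the scale of FPKM + 1, were 16 members (27.1%), against 3.57% of the genes that reach 5 FPKM. In 9 of these 16 the watered groups stayed within 1.5-fold of each other in both regions, among them Sevir.2G223700, Sevir.5G302500 and Sevir.7G029400. Whether the age difference under drought differs from that with watering was not tested, and the drought values are those that also entered the rule.

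**Figure D4:**
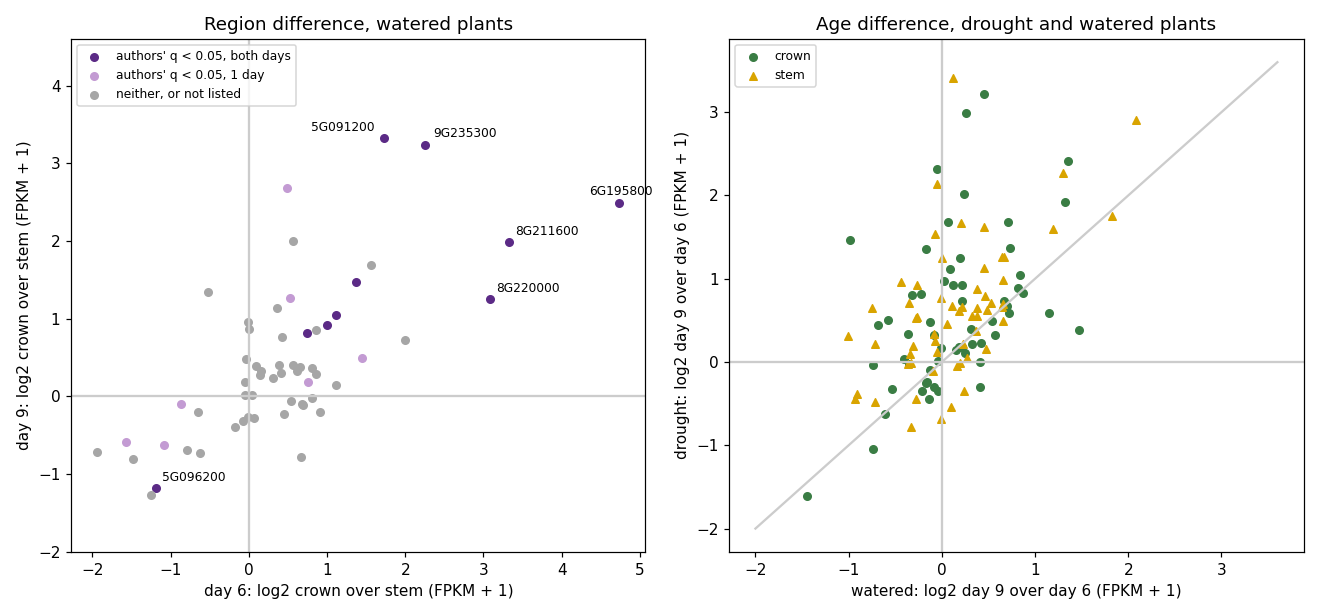
Left: log2 ratio of FPKM + 1, crown over stem, in watered plants at day 9 (vertical) and day 6 (horizontal) for the 59 members, coloured by the calls of the authors' deposited tables. Right: log2 ratio of FPKM + 1, day 9 over day 6, in drought (vertical) and watered plants (horizontal), with crowns as circles and stems as triangles. Sevir.6G195800 lies far right in the left panel at 4.74 on the day 6 axis, and 35 of 59 crown points and 46 of 59 stem points of the right panel lie above the grey line of equal change. These are the members whose drought ratio was larger at day 9 than at day 6, counted a further time. Those ratios chose the members, so nothing is read from the counts.

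The remaining members were of low to moderate level. Sevir.1G333300 ranged from 9.43 to 13.8 FPKM over the 4 drought groups and from 0.911 to 2.64 FPKM over the 4 watered groups. Sevir.1G333300 was called in all 4 drought comparisons in the authors' deposited tables. Sevir.9G126100 ranged from 6.42 to 7.75 FPKM over the 4 drought groups and from 1.63 to 3.38 FPKM over the 4 watered groups. Sevir.4G271800 ranged from 11.9 to 27.3 FPKM over the 4 drought groups and from 5.41 to 11 FPKM over the 4 watered groups. Sevir.5G342100 ranged from 13.4 to 34.5 FPKM over the 4 drought groups and from 5.13 to 11.5 FPKM over the 4 watered groups. All 3 genes were called in all 4 drought comparisons as well, and in Sevir.5G342100 the drought day 6 crown, at 13.4 FPKM, was close to the watered day 9 stem, at 11.5 FPKM. Sevir.1G244000 ranged from 4.07 to 8.8 FPKM over the 4 drought groups and from 1.34 to 2.61 FPKM over the 4 watered groups. Sevir.4G160900 ranged from 2.26 to 5.18 FPKM over the 4 drought groups and from 1.1 to 2.55 FPKM over the 4 watered groups. These 2 genes were called in 3 of the 4 authors' deposited tables. Sevir.4G085700 ranged from 13.6 to 20.4 FPKM over the 4 drought groups and from 5.3 to 9.8 FPKM over the 4 watered groups. Sevir.1G174400 ranged from 2.4 to 5.21 FPKM over the 4 drought groups and from 0.623 to 2.16 FPKM over the 4 watered groups. Sevir.3G332100 ranged from 2.99 to 5.5 FPKM over the 4 drought groups and from 1.53 to 3.18 FPKM over the 4 watered groups. Calls in 2 of the 4 tables were shared by this group of 3 genes and by Sevir.8G239300. Sevir.8G239300 ranged from 5.1 to 10.0 FPKM over the 4 drought groups and from 3.05 to 5.52 FPKM over the 4 watered groups.

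The 11 members that follow were called in a single comparison or in none in the authors' deposited tables, and all stayed under 20 FPKM. Sevir.1G231600 ranged from 2.03 to 9.97 FPKM over the 4 drought groups and from 0.347 to 1.23 FPKM over the 4 watered groups. Sevir.1G349400 ranged from 1.93 to 6.33 FPKM over the 4 drought groups and from 0.393 to 1.54 FPKM over the 4 watered groups. Sevir.1G378600 ranged from 4.1 to 11.1 FPKM over the 4 drought groups and from 1.89 to 2.4 FPKM over the 4 watered groups. The last of these shares its position entry with 2 other genes. Sevir.4G221800 ranged from 5.89 to 12.1 FPKM over the 4 drought groups and from 3.05 to 6.08 FPKM over the 4 watered groups. Sevir.9G295100 ranged from 3.95 to 13.2 FPKM over the 4 drought groups and from 0.137 to 1.26 FPKM over the 4 watered groups. Sevir.4G062100 ranged from 2.64 to 7.18 FPKM over the 4 drought groups and from 0.696 to 1.47 FPKM over the 4 watered groups. At day 9, crowns held Sevir.9G295100 at 13.2 FPKM under drought and 0.137 FPKM with watering, and the authors' deposited table gave q = 0.387. Sevir.1G185800 ranged from 1.59 to 5.19 FPKM over the 4 drought groups and from 0.574 to 1.54 FPKM over the 4 watered groups. Sevir.4G009800 ranged from 5.25 to 9.33 FPKM over the 4 drought groups and from 3.13 to 5.59 FPKM over the 4 watered groups. Sevir.6G026500 ranged from 2.81 to 11.7 FPKM over the 4 drought groups and from 1.08 to 7.29 FPKM over the 4 watered groups. The watered day 6 crowns of Sevir.4G009800 and Sevir.6G026500 lay above their drought day 6 stems. Sevir.9G180200 ranged from 5.21 to 6.93 FPKM over the 4 drought groups and from 2.6 to 4.01 FPKM over the 4 watered groups. Sevir.9G172000 ranged from 13 to 16.2 FPKM over the 4 drought groups and from 6.9 to 8.81 FPKM over the 4 watered groups. This last pair shares position entries with 1 other gene each, and both were among the 3 members closest to the minimum ratio.

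The edges of the rule were narrow. Just inside were Sevir.9G172000, Sevir.9G180200 and Sevir.8G239300, with smallest ratios of 1.5002, 1.506 and 1.507. Just outside were Sevir.2G252000, Sevir.1G044000 and Sevir.8G231900, with smallest ratios of 1.497, 1.493 and 1.491. By level, the lowest member was Sevir.4G160900, with a highest value of 5.18 FPKM, and the nearest gene left out was Sevir.4G239100, at 4.93 FPKM. Of the genes that reach 5 FPKM, 102 met the ratio in 3 of the 4 comparisons, 353 in 2 and 1342 in 1.

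Positions were not part of the rule. Chromosome 5 held 13 of 59 members (22.0%), against 14.4% of all 20865 genes, and chromosome 9 held 12 (20.3%), against 18.3%. Chromosome 3 held 2 (3.39%), against 12.3%. Next to another member, with no other gene of the tables between, were 6 members in 2 runs, both on chromosome 5. The first spans 15920 bases, from 7304309 to 7320228, and holds the 4 genes Sevir.5G090900 to Sevir.5G091200. Of the 10 genes on either side, 5 each way, none met the rule. Among them, Sevir.5G090600 met the ratio in all 4 comparisons and missed the level, with a highest value of 4.86 FPKM, and Sevir.5G090900 is separated from it by Sevir.5G090800, whose log2 ratios were 0.33 in day 9 crowns and -0.90 in day 6 crowns. The second run, Sevir.5G129100 and Sevir.5G129200, spans 3012 bases from 10549762 to 10552773. Its 10 flanking genes had log2 ratios from -0.99 to 0.71. Whether neighbouring members are copies of one another, and how the authors' counting treated reads that match several of them, was not tested.

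**Figure D5:**
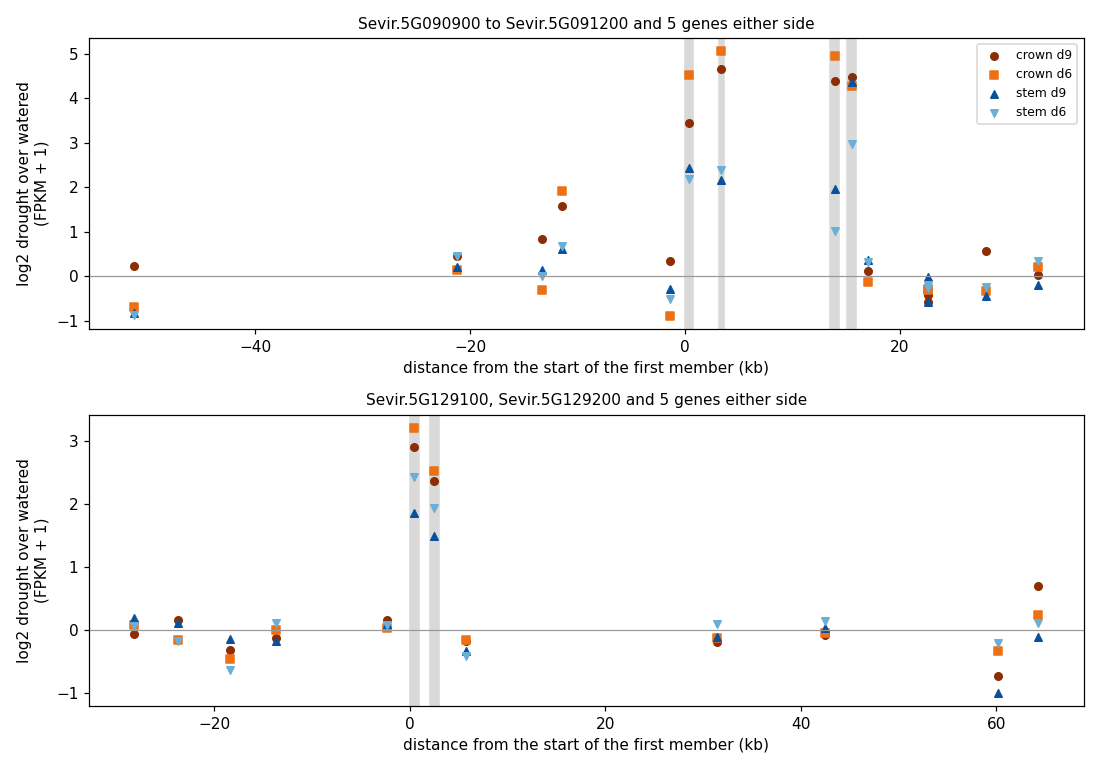
Log2 ratio of FPKM + 1, drought over watered, of the genes around the 2 runs of adjacent members (upper and lower panel), by distance of each gene's middle from the start of the first member in kilobases; colours and symbols are the 4 comparisons and grey bands the members. Ratios inside the bands stand apart from those of most neighbours, with log2 ratios up to 5.06 in the upper panel and 3.21 in the lower one. Members were chosen by these ratios and the flanking genes did not meet the rule, so nothing is read from the gap.

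Members spanned less of the genome than other genes. The median span from start to end of the position entry, a stretch of genome and not a transcript length, was 2987 bases for the members. It was 3775 bases for the genes that reach 5 FPKM. For 4 members the entry is shared with other genes, so its span is not that of a single gene. Of the members, 14 (23.7%) spanned under 1000 bases, against 5.66% of the genes that reach 5 FPKM. All 6 members of the 2 runs are among these 14, with Sevir.5G091000 spanning 454 bases. Of the 14, 4 were called in all 4 drought comparisons in the authors' deposited tables and 4 in none. The FPKM of a short gene rests on fewer fragments than that of a long gene at the same FPKM, and the part of gene length in these ratios was not tested.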

How the data were processed

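RNA was sequenced from 24 libraries in 8 groups. The submitters' processing notes list Cuffdiff, FastQC and cutadapt; an aligner or genome build is not given in the sources used here. Libraries kept the strand and were depleted of ribosomal RNA, per the labels' protocols. The authors deposited 28 tables, 1 per pair of groups, each with 1 FPKM value per gene and group, a log2 fold change, a Cuffdiff test statistic (a score, unused here), a p-value and a q-value, per the file headers. FPKM values did not differ between tables of a group, and the deposited q-values equal a Benjamini-Hochberg adjustment of the p-values of all 28 tables together, 531416 in all.

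Members were found with Python 3.11.15 and pandas 2.3.3 as described at the start of the report; ratios use a pseudocount of 1 FPKM and understate changes of low genes. The script was tested on simulated data. Calls rest on the authors' p-values and q-values, since group values allow no fit on libraries; the threshold was q under 0.05 unless another is named. P-values test a difference between a pair of groups against the variation between the 3 biological repeats, and are no measure of that variation. Members, lists and the rule for naming genes were chosen with earlier results of these data known. That rule took the members with the highest smallest ratio, level or ratio, those called in all 4 drought tables, adjacent members, called region and age differences, and genes at the edges of the rule; all other members are named to complete the account. Alternatives changed the pseudocount, minimum ratio, minimum level, centring and the threshold on q.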

Additional observations from a re-analysis of the deposited data

How the results depend on the processing

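The number of genes raised in all 4 comparisons, 59, depends on the rule. It was 89 with a pseudocount of 0.1 FPKM and 25 with 5 FPKM, 30 with a minimum ratio of 2 and 224 with a minimum midway between 1 and 1.5, 30 with a minimum level of 20 FPKM, 67 with no minimum level, and 68 with ratios centred on the median gene. All 59 were kept under the 4 looser settings (a pseudocount of 0.1, the lower ratio, no minimum level and centring). Each of these settings can only add genes here, so that outcome was fixed in advance and is no support for the list. In day 6 crowns, 31 members were called, against 17 at q under 0.01 and 16 with the adjustment made within the table, and in day 6 stems 32 against 14 with the adjustment made within the table. The 2 members called higher at day 9 in watered crowns became 0 with the adjustment made within the table. Without the 5 most abundant members the sums were 1268 FPKM in drought and 373 in watered day 9 crowns, 978 and 333 in drought and watered day 6 crowns, 1002 and 243 in drought and watered day 9 stems, and 640 and 221 in drought and watered day 6 stems. The cause of these changes was not tested. Counts of members with a larger ratio in the crown or at day 9 moved by less than 1.5 times under other pseudocounts and centring, alternatives that were added after the data were seen. No paired analysis was possible because the files give 1 value per group and not per library, and leaving out a replicate was not possible for the same reason. Read depth is unknown, so low members carry an error that these files do not show.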

Other observations

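Genes that met the ratio of 1.5 in 3 of the 4 comparisons and reached 5 FPKM, 102 in all, missed it in day 6 stems in 38 cases, in day 6 crowns in 33, in day 9 crowns in 22 and in day 9 stems in 9. Where they missed it, most still had the higher value under drought, in 30 of the 38 in day 6 stems, 27 of the 33 in day 6 crowns, 15 of the 22 in day 9 crowns and 7 of the 9 in day 9 stems. Of all genes that reach 5 FPKM, 46.3%, 44.2%, 47.3% and 46.9% were higher under drought in these comparisons. The 102 genes were picked by their ratios in the 3 other drought comparisons, so nothing is read from these counts.

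On chromosome 8, the 5 genes that follow Sevir.8G220000 met the ratio of 1.5 in stems on both days and were left out by their crown values. Sevir.8G220300 stood at 595 FPKM in drought and 437 FPKM in watered day 9 crowns, a log2 ratio of FPKM + 1 of 0.44, and its log2 ratios were 0.57 in day 6 crowns and 1.87 in day 9 stems. Sevir.8G220200 missed the ratio in day 6 crowns alone, with a log2 ratio of 0.53. Sevir.8G220400, Sevir.8G220500 and Sevir.8G220700 missed it in day 9 crowns, with log2 ratios of 0.14, 0.40 and 0.45. These genes were chosen after their values were seen.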
